A study of Mus musculus with 24 samples.

Results

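GABA-A receptors are the chloride channels through which GABA, the main inhibitory transmitter of the adult brain, acts within milliseconds. The genes described here are 7 of their subunit genes in the mouse hippocampus after neonatal hypoxia-ischemia: the alpha subunit genes Gabra2, Gabra3, Gabra4 and Gabra5, the beta subunit genes Gabrb1 and Gabrb2, and the delta subunit gene Gabrd. They were found by gene name in the deposited table, which held 22314 named genes. All 7 were found, each on 1 line, and all 7 were among the 18364 genes with enough signal to test (a value of at least 10 in at least 2 libraries).

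Total RNA of the hippocampus was sequenced from mice of postnatal day 10 after hypoxia-ischemia, which models brain injury around birth. The 24 libraries formed 12 groups of 2 replicates: 3 genotypes, 2 sides of the brain and 2 times (3 h and 6 h). The genotypes were wild type (WT), Neil1-KO and Neil2-KO. Neil1 and Neil2 are DNA glycosylases, enzymes that cut oxidized bases out of DNA. The ipsilateral hippocampus is the injured side, and the contralateral hippocampus of such pups served as the comparison. Every group had therefore undergone hypoxia-ischemia, and no uninjured pups were analysed here. The knockout alleles, the strain and the moment from which the hours were counted are not given in the sources used here. The labels give 2 biological replicates a group and do not say outright that libraries of both sides with the same number came from the same pup. P-values measure the spread between these replicates.

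Depth was 17771293 to 29252067 reads a library. Neil2 checked its label: it was at 0 to 3.02 normalized counts in the 8 Neil2-KO libraries and at 15.2 to 27.8 in the 8 WT libraries. Neil1 gave no such check. It was at 91.6 to 155 in the 8 libraries labelled Neil1-KO and at 56.8 to 123 in WT, and reads from exons that an allele leaves in place cannot test it, so those libraries are called "labelled Neil1-KO" here. The titles of 8 libraries read Neil2-KO although their genotype tag read Neil1-KO, and the titles were followed. All 12 markers of hippocampal subfields passed the filter on low values. Xist, which is made from the inactive X chromosome, lay between 7604 and 18158 normalized counts in 3 same-numbered pairs of libraries. These pairs were replicate 2 of labelled Neil1-KO (3 h, 6 h) and of Neil2-KO (6 h only), and all other libraries were at 20.2 or less. Labelled Neil1-KO ipsilateral 6 h replicate 2 had the highest share of reads on lines without a gene name, 12.5% where the lowest was 8.41%. WT ipsilateral 6 h replicate 2 stood apart in Tcf7l2, a transcription factor that is abundant in the thalamus, at 939.6 normalized counts. Its partner, replicate 1, was at 582, and the other 22 libraries lay between 84.3 and 272.

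As background, each GABA-A receptor is a ring of subunits around a chloride pore. Most receptors at synapses combine alpha, beta and gamma subunits. The alpha subunit sets much of the receptor's kinetics and drug response, and the beta subunit forms part of the site where GABA binds. Receptors with the delta subunit, often together with alpha4, lie outside synapses and carry a steady (tonic) current, as do many receptors with alpha5, a subunit that is abundant in hippocampal pyramidal neurons. Alpha2 and alpha3 are prominent in the immature brain. The subunits in use change over the first postnatal weeks, a period in which GABA also turns from depolarizing to inhibitory as neurons lower their chloride.

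On the injured side 5 of the 7 subunit genes were lower at both times, and 2 were not called at either. Gabra2, Gabra4, Gabra5, Gabrb1 and Gabrb2 fell at 3 h and stood lower still at 6 h, when their medians over the 6 same-numbered pairs of libraries were 33.8% (Gabrb1) to 52.3% (Gabrb2) of the contralateral value. Gabra3 and Gabrd were at 86.1% and 106%. A test of the side difference between the times called only Gabrb1 (limma adjusted p = 0.00657). Averaged over genotypes, 5 of the 7 genes were called lower at 3 h, where 31.6% of all genes tested were called in either direction and 17.4% were called lower. At 6 h, 5 of 7 were again called lower, against 48.7% of all genes in either direction and 24.7% lower. A gene was called at a Benjamini-Hochberg adjusted p under 0.05 over the 18364 genes in limma, a linear model on log2(normalized count + 1). The median log2 fold change of the 7 genes was -0.60 at 3 h and -1.11 at 6 h, beside medians over all genes tested of 0.01 and 0.02. In bulk tissue, fewer cells that use a gene and less RNA per cell cannot be told apart.

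**Figure D1:**
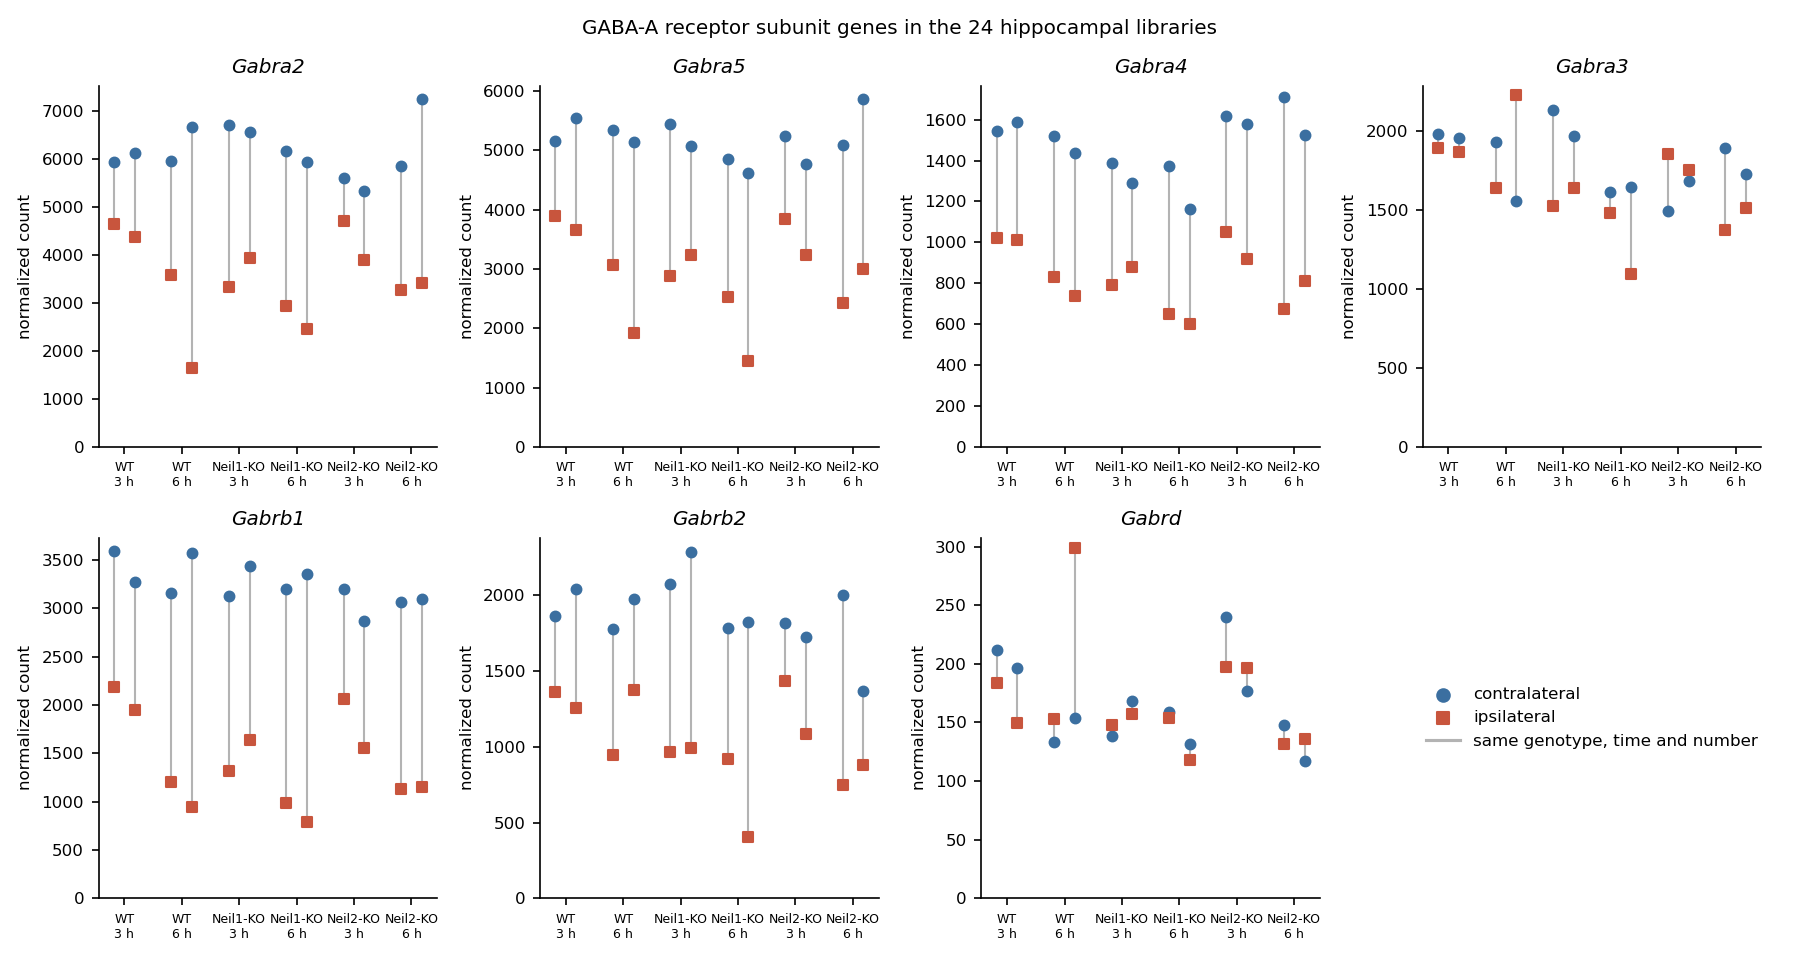
Normalized count of each subunit gene (y axis, linear from 0) in all 24 libraries, by genotype and time (x axis). Circles are contralateral and squares ipsilateral libraries, and grey lines join libraries with the same genotype, time and number. For Gabra2, Gabra5, Gabra4 and Gabrb1 every ipsilateral library lies under every contralateral one, while Gabra3 and Gabrd overlap between the sides.

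The levels of the 7 genes differed widely. Divided by the length of the merged exons in kilobases (kb), the contralateral medians at 3 h (n = 6 libraries) were 1748 normalized counts per kb for Gabra5, 788 for Gabra2, 500 for Gabra3, 307 for Gabrb2, 256 for Gabra4, 234 for Gabrb1 and 65.0 for Gabrd. The ranges over those 6 libraries did not meet between Gabra5 (1606 to 1862), Gabra2 (697 to 877), Gabra3 (380 to 542) and Gabrb2 (271 to 359). Gabra4 (212 to 266) and Gabrb1 (207 to 259.7) overlapped, so their order is not settled by these libraries. Gabrd was lowest in all 6 (48.1 to 83.4). On the injured side at 6 h the medians per kb were 834, 406, 381, 141, 116, 76.4 and 50.3 in the same order, and Gabra2 (215 to 467) and Gabra3 (279 to 567) then overlapped. These lengths come from a GENCODE annotation of an earlier mouse build, so the levels per kb are approximate. They join all annotated exons of a gene, used here or not, and the order of the genes depends on them. By count alone, the contralateral median at 3 h was higher for Gabra2 (6023) than for Gabra5 (5199.6). That of Gabrb1 (3240) was above those of Gabra3 (1962), Gabrb2 (1952) and Gabra4 (1560).

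Promoter sequence is shown for 3 of the alpha subunit genes, a pair that fell together (Gabra2 and Gabra5) and the one that was not called (Gabra3). The windows are the 250 bases before the transcription start in RefSeq, build GRCm38.p6, 5′ to 3′ on the strand of the gene. Capitals mark CpG, the dinucleotide that is frequent in CpG-island promoters.
Gabra2 (chr5:71095850-71096099, minus strand): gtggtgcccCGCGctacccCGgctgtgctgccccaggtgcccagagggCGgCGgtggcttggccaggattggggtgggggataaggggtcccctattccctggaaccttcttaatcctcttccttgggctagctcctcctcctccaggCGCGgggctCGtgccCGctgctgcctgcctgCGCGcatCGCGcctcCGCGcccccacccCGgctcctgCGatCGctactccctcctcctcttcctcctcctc
Gabra5 (chr7:57510060-57510309, minus strand): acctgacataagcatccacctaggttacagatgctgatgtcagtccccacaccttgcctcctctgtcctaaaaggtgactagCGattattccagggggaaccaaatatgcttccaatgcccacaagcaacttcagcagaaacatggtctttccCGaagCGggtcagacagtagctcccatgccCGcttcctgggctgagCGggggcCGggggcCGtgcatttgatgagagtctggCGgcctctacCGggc
Gabra3 (chrX:72656920-72657169, minus strand): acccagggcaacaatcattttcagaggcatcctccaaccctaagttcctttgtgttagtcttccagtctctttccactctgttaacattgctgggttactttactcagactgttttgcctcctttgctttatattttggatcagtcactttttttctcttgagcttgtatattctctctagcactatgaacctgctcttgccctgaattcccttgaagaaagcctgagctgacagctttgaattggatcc

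The Gabra2 window held 18 CpG and 70.0% G or C, the Gabra5 window 9 CpG and 56.4%, and the Gabra3 window 0 CpG and 42.4%. Over the 32851 windows of this length in the table the median was 6 CpG and 52.4% G or C. On both strands, 4 short motifs were searched. The core of the TATA box, spelled TATAAA, was in 12.4% of all windows. The GC box, spelled GGGCGG, was in 32.7%. The cAMP response element, spelled TGACGTCA, was in 1.55%. The site of the Egr family, spelled GCGNGGGCG, was in 4.7%, and followed by a G it also holds a GC box. The TATA box core was in the Gabra3 window, the GC box in the Gabra2 window, and none of the 4 in the Gabra5 window. Of the 7 genes, 6 had an entry, with 10 windows in all. Gabrb2 had 3 start sites, and its first window (chr11:42420190-42420439, plus strand) held the TATA box core, the GC box and the Egr site, with 8 CpG. A match is a description of the letters only. Gabra4 and Gabrb1 lie head to head on chromosome 5 and their annotated spans share 388 bases. Whether the counting used strand is not given in the sources used here, so reads from that stretch cannot be assigned to either gene. Gabra2 also lies on chromosome 5, Gabra5 on 7, Gabrb2 on 11, Gabrd on 4 and Gabra3 on X.

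Gabra2 encodes alpha2, a subunit of synaptic receptors that is prominent at the start segment of the axon. Contralaterally its value was 5929 and 6117 normalized counts in WT, 6697 and 6554 in labelled Neil1-KO and 5601 and 5327 in Neil2-KO at 3 h. At 6 h the contralateral values were 5946 and 6649.6, 6167 and 5928, and 5854 and 7233, in the same order of genotypes. Ipsilaterally it was 4639 and 4369, 3323 and 3937, and 4692 and 3881 at 3 h. At 6 h it was 3567 and 1646, 2929 and 2452, and 3272 and 3402. Every ipsilateral library lay under every contralateral library at both times. The log2 fold change over genotypes was -0.55 ± 0.13 (SE, limma adjusted p = 0.00324) at 3 h and -1.17 ± 0.13 (limma adjusted p = 9.07e-07) at 6 h. The lowest of the 24 values was WT ipsilateral 6 h replicate 2, the library with the highest Tcf7l2. Without it the WT side difference at 6 h was -0.82 in place of -1.38 ± 0.22 (limma adjusted p = 0.000426). That fit left only replicate 1 in the group, the library with the next highest Tcf7l2 (582 normalized counts).

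Gabra5 encodes alpha5, which is concentrated in the hippocampus and outside synapses. It had the highest level per kb of the 7 genes. Contralateral values ranged from 4776 to 5537 at 3 h (median 5199.6, n = 6) and from 4611 to 5864 at 6 h (median 5112). Ipsilateral values at 3 h were 3886 and 3657 in WT, 2886 and 3236 in labelled Neil1-KO and 3848 and 3228 in Neil2-KO. At 6 h they were 3069 and 1924, 2533 and 1444, and 2426 and 2994. The sides did not overlap at either time. The lowest values were replicate 2 of labelled Neil1-KO and replicate 2 of WT, both at 6 h. Over genotypes the difference was -0.60 ± 0.12 (limma adjusted p = 0.00108) at 3 h and -1.14 ± 0.12 (limma adjusted p = 5.95e-07) at 6 h.

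Gabra4 encodes alpha4, a partner of delta in receptors outside synapses, prominent in dentate granule cells and in the thalamus. Its contralateral values were 1289 to 1616 at 3 h (median 1560.0, n = 6) and 1162 to 1709 at 6 h (median 1476). Ipsilaterally the 3 h values were 1019.9 and 1012 in WT, 789.7 and 881 in labelled Neil1-KO and 1052 and 921 in Neil2-KO. The 6 h values were 832 and 737, 650.5 and 599, and 675 and 809. No ipsilateral library reached the lowest contralateral one. The fall was even across genotypes, with log2 fold changes of -0.62, -0.68 and -0.70 at 3 h and of -0.91, -1.02 and -1.13 at 6 h (WT, labelled Neil1-KO, Neil2-KO, each ± 0.12 SE), and all 6 were called. Over genotypes it was -0.67 ± 0.07 (limma adjusted p = 1.18e-06) at 3 h and -1.02 ± 0.07 (limma adjusted p = 2.61e-09) at 6 h.

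Gabra3 encodes alpha3, a subunit that is more abundant before birth and in the first postnatal weeks than in adults. Its contralateral values were 1979.9 and 1956 in WT, 2128 and 1968 in labelled Neil1-KO and 1489.8 and 1679.7 in Neil2-KO at 3 h, and 1930.5 and 1555, 1609.9 and 1645, and 1889 and 1726 at 6 h. Ipsilaterally it was 1890.2 and 1864, 1525 and 1635, and 1854 and 1749 at 3 h, and 1636 and 2226, 1481 and 1093, and 1368 and 1509 at 6 h. The sides overlapped at both times, and the highest of the 24 values was WT ipsilateral 6 h replicate 2. The difference over genotypes was -0.09 ± 0.08 (95% interval -0.26 to 0.09, limma adjusted p = 0.479) at 3 h and -0.18 ± 0.08 (-0.36 to -0.0032, limma adjusted p = 0.0857) at 6 h. Without WT ipsilateral 6 h replicate 2 the 6 h value was -0.26 (limma adjusted p = 0.0147), and it was also called without WT contralateral 6 h replicate 2 (-0.23, limma adjusted p = 0.0413) or without labelled Neil1-KO ipsilateral 6 h replicate 1 (-0.25, limma adjusted p = 0.0113). Gabra3 was the only X-linked gene of the 7, and Xist was high in 3 of the 12 pairs, as given above. The part of sex in its values was not tested beyond leaving those pairs out.

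Gabrb1 encodes beta1. It had the largest fall of the 7 genes at both times. Contralateral values were 3594 and 3277 in WT, 3128 and 3434 in labelled Neil1-KO and 3203 and 2871 in Neil2-KO at 3 h, and 3163 and 3574, 3201 and 3359, and 3064 and 3102 at 6 h. Ipsilaterally it was 2187 and 1947, 1318 and 1634, and 2058 and 1558 at 3 h, and 1207 and 949, 982 and 789.7, and 1132 and 1148 at 6 h. The highest ipsilateral value at 6 h (1207) was under the lowest ipsilateral value at 3 h (1318), so the 2 times did not overlap on that side. The difference over genotypes was -0.88 ± 0.09 (limma adjusted p = 7.69e-07) at 3 h, so the level fell by 45.8%. At 6 h it was -1.66 ± 0.09 (limma adjusted p = 1.74e-10), and the level fell by 68.4%. In the 12 same-numbered pairs, Gabrb1 was lowered more than Gabra4 and more than Gabra5 in 12, more than Gabra2 in 11 and more than Gabrb2 in 10, which is a description with no test.

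Gabrb2 encodes beta2, the beta subunit of the most common adult receptor type. Contralateral values were 1863 and 2042 in WT, 2074 and 2286 in labelled Neil1-KO and 1818 and 1726 in Neil2-KO at 3 h, and 1778 and 1975, 1782 and 1821, and 1999 and 1368 at 6 h. Ipsilaterally it was 1359 and 1258, 968 and 994, and 1436 and 1083 at 3 h, and 945 and 1372, 917 and 402, and 745 and 877 at 6 h. The sides did not overlap at 3 h. At 6 h they met in a single pair of libraries, the highest ipsilateral one being WT replicate 2 (1372) and the lowest contralateral one Neil2-KO replicate 2 (1368). The difference over genotypes was -0.74 ± 0.15 (limma adjusted p = 0.00119) at 3 h and -1.11 ± 0.15 (limma adjusted p = 1.13e-05) at 6 h. Its lowest value was 402, in labelled Neil1-KO ipsilateral 6 h replicate 2. Without that library the side difference of labelled Neil1-KO at 6 h was -0.97 (limma adjusted p = 0.00316) in place of -1.57 ± 0.27 (limma adjusted p = 0.000194).

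Gabrd encodes delta, which in the hippocampus is found mainly in dentate granule cells and some interneurons and whose level climbs after birth. It rested on 88 to 363 reads a library, the fewest of the 7 genes, where Gabra2 had 2001 to 8331. Contralateral values were 212 and 197 in WT, 138 and 168 in labelled Neil1-KO and 239.7 and 177 in Neil2-KO at 3 h, and 134 and 154, 159 and 132, and 148 and 117 at 6 h. Ipsilaterally it was 184 and 149.7, 148 and 157, and 197 and 197 at 3 h, and 153 and 299, 154 and 118, and 131 and 136 at 6 h. The sides overlapped at both times. The value of 299 in WT ipsilateral 6 h replicate 2 was the highest of the 24, and the next was 239.7. WT ipsilateral 6 h replicate 2 was also the library with the highest Tcf7l2. The difference over genotypes was -0.12 ± 0.14 (95% interval -0.42 to 0.18, limma adjusted p = 0.552) at 3 h and 0.16 ± 0.14 (-0.13 to 0.46, limma adjusted p = 0.361) at 6 h. With the WT ipsilateral 6 h group reduced to its replicate 2, the 6 h value over genotypes was 0.32, and the WT value was 1.05 in place of 0.57 ± 0.25 (limma adjusted p = 0.111). With both replicates kept and the mean level of neuron markers as a further term, the WT value was 0.75 and was called, at the threshold (limma adjusted p = 0.05 after rounding).

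Each genotype was then taken alone. In WT at 3 h, 2 of the 7 were called lower, Gabra4 (-0.62 ± 0.12, limma adjusted p = 0.00444) and Gabrb1 (-0.73 ± 0.15, limma adjusted p = 0.00848). There 4.29% of all genes were called in either direction and 1.79% lower. Both genes lost their calls without WT contralateral or ipsilateral 3 h replicate 2, and Gabrb1 also without WT contralateral 3 h replicate 1. Each such fit left 1 library in a group. Without contralateral replicate 2 and without ipsilateral replicate 2, Gabra4 was at -0.60 and -0.62 and Gabrb1 at -0.80 and -0.65. Gabrb1 was at -0.67 without contralateral replicate 1. With only the WT 3 h libraries in the fit, 5 of the 7 were called, where 1946 of all genes were called in place of 787. In WT at 6 h, 4 were called lower (20.6% of all genes in either direction, 10.3% lower). Gabrb2 was at -0.72 ± 0.27 (limma adjusted p = 0.0641) there. It was called at nearly the same fold by DESeq2 (-0.70, adjusted p = 0.031), and at the same fold with only the WT 6 h libraries in the fit (limma adjusted p = 0.0385) and without the pairs with high Xist (limma adjusted p = 0.00912). In labelled Neil1-KO, 5 were called lower at 3 h (17% of all genes in either direction, 9.85% lower) and 5 at 6 h (39% and 21.4%). The 3 h count was 2 without contralateral replicate 2 or ipsilateral replicate 1 and 3 without contralateral replicate 1. In Neil2-KO, Gabra4 and Gabrb1 were called at 3 h (9.24% in either direction, 4.95% lower), and 5 were called lower at 6 h (24.8% and 12.6%). Without Neil2-KO contralateral 3 h replicate 1 or ipsilateral 3 h replicate 2, Gabrb1 was not called there. At 6 h in Neil2-KO, Gabrb2 lost its call without contralateral or ipsilateral replicate 1, and Gabra2 without contralateral replicate 2. In labelled Neil1-KO at 6 h, Gabra3 (-0.35 ± 0.15, limma adjusted p = 0.0646) was called at -0.57 without ipsilateral replicate 1 (limma adjusted p = 0.00589). Without the pairs with high Xist, which left 1 pair a group there, Gabra2 was not called in labelled Neil1-KO (-1.01 against -0.87 at 3 h, -1.07 against -1.17 at 6 h) or in Neil2-KO at 6 h (-0.84 against -0.96), though its folds stayed about as large.

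**Figure D2:**
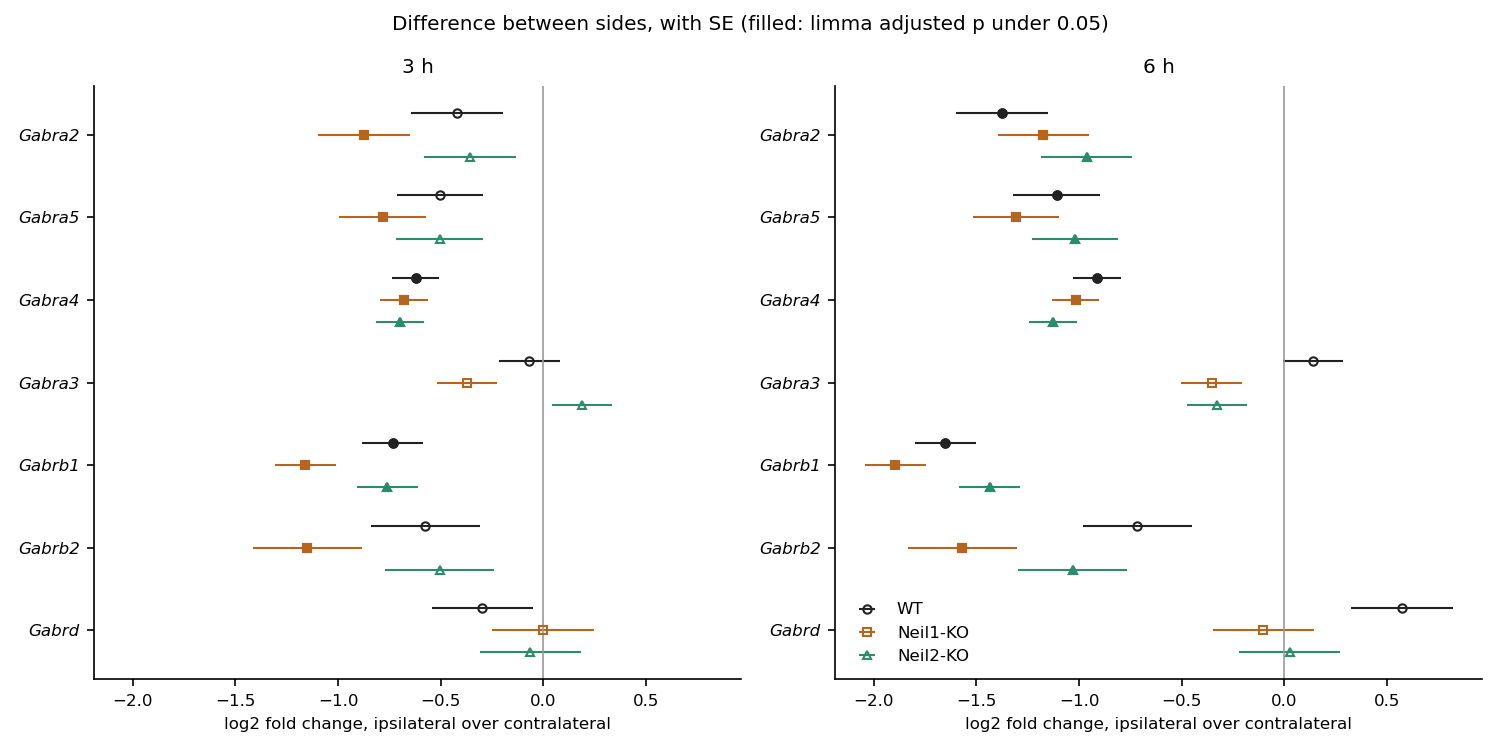
Log2 fold change, ipsilateral over contralateral (x axis), of each subunit gene in each genotype at 3 h and 6 h, with bars of 1 SE from limma. Filled symbols have an adjusted p under 0.05. Gabra4 and Gabrb1 are filled in all 6 combinations of genotype and time, and Gabra3 and Gabrd in none.

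The same-numbered pairs give the fall library by library. Gabra2, Gabra4, Gabra5, Gabrb1 and Gabrb2 were lower ipsilaterally in 12 of 12 pairs, Gabra3 in 9 and Gabrd in 7. At 6 h the ipsilateral level of Gabrb1 was 23.5% to 38.2% of the contralateral one, that of Gabra4 39.5% to 54.8%, of Gabra5 31.3% to 57.4%, of Gabra2 24.8% to 60.0% and of Gabrb2 22.1% to 69.5%. Gabra4 and Gabrb1 thus had the narrowest ranges of the 5, and Gabrb2 the widest. Gabra3 ran from 66.5% to 143% and Gabrd from 88.8% to 194%, both highest in WT replicate 2.

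Markers of neurons were also lower on the injured side. Of 12 neuron markers, 9 were called lower at 3 h and 12 at 6 h, and Map2, a dendritic protein, had the smallest adjusted p at both times (-0.66 ± 0.09 and -0.88 ± 0.09). Their summed level was 174803 to 188556 normalized counts contralaterally and 122465 to 153867 ipsilaterally at 3 h, and 160974 to 191065 and 78932 to 145801 at 6 h. The mean log2 difference of the 12 markers in the pairs had a median of -0.37 at 3 h and -0.57 at 6 h. Gabra2, Gabra5, Gabrb1 and Gabrb2 lay under that mean in 12 of 12 pairs and Gabra4 in 11, whereas Gabra3 did so in 0 and Gabrd in 2. The exception for Gabra4 was in a pair at 6 h. The smallest marker shift of the 12 pairs was -0.10, in WT 6 h replicate 2, where Gabra2 had its deepest fall (-2.01) and Gabrb1 was at -1.91. The ipsilateral library of that pair is the one with the highest Tcf7l2 (939.6 normalized counts), so its neuron markers may include those of thalamic tissue, which was not tested. With the mean log2 level of the neuron markers as a further term in the fit, Gabra4 and Gabrb1 were still called over genotypes at 3 h, and Gabra2, Gabra4 and Gabrb1 at 6 h. Gabra2 at 3 h was not called but kept much of its fold (-0.48 against -0.55, limma adjusted p = 0.151). Gabra5 was not called at either time under that term, with -0.22 (limma adjusted p = 0.424) at 3 h and -0.55 (limma adjusted p = 0.1) at 6 h. Gabrb2 was not called either, with -0.19 (limma adjusted p = 0.582) and -0.22 (limma adjusted p = 0.614). The part of neuron loss or of the cell mix in these falls was not tested.

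**Figure D3:**
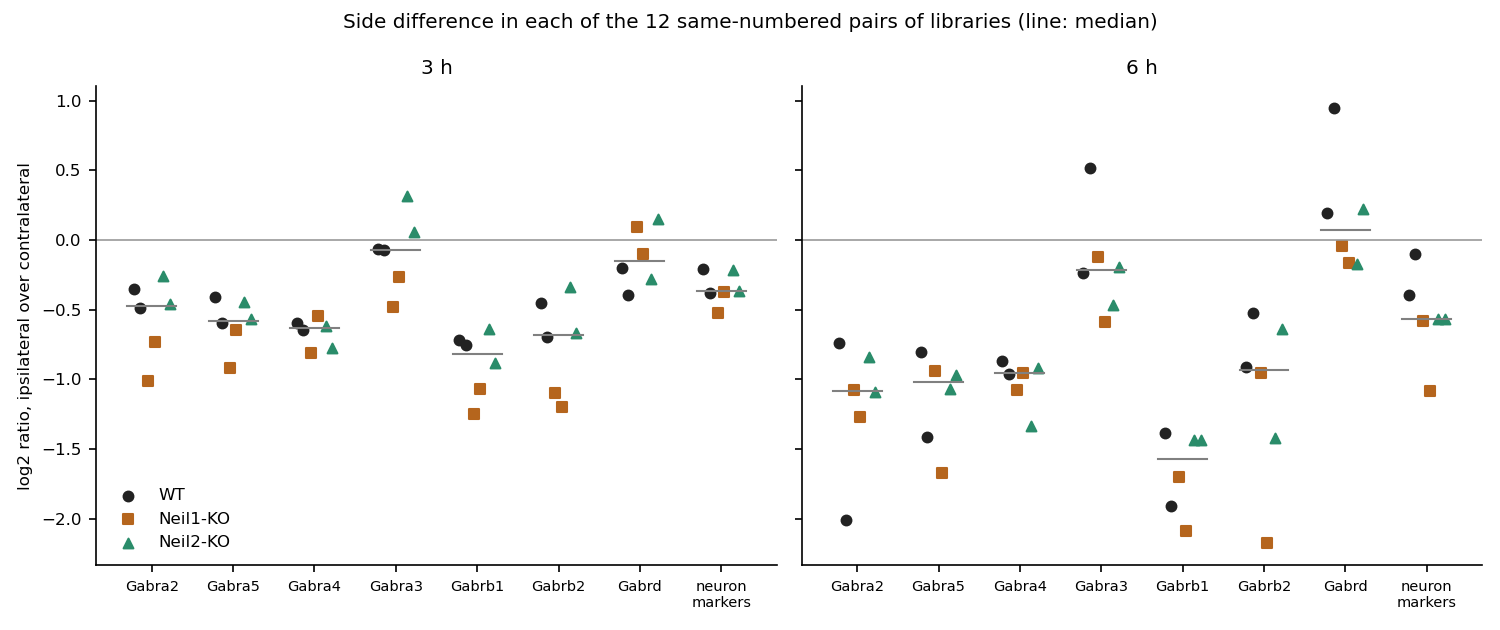
Log2 ratio, ipsilateral over contralateral (y axis), in each of the 12 same-numbered pairs of libraries for each subunit gene and for the mean of 12 neuron markers (x axis). Symbols give the genotype and grey lines the median of 6 pairs. Gabrb1 is lowest among the medians at both times (-0.82 and -1.57), and Gabra3 and Gabrd lie around 0.

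Markers of other tissue moved as well. Of 12 hippocampal subfield markers, 7 were called lower at 3 h and 11 at 6 h, and their sum was 23883 to 29777 contralaterally and 10756 to 16023 ipsilaterally at 6 h. Of 10 thalamus markers, 4 were called higher and 1 lower at 6 h, and 1 higher and 1 lower at 3 h. Their sum at 6 h was 2996 to 3995 contralaterally and 3453 to 5942 ipsilaterally, highest in WT. No marker of these lists was absent from the table. With the mean thalamus marker level as a term, 2 of the 7 subunit genes (Gabra4 and Gabrb1) were called over genotypes at 6 h and 4 at 3 h, Gabra2 being lost. Interneuron markers gave 0 higher and 1 lower of 8 at 3 h and 1 higher and 2 lower at 6 h, with sums of 12901 to 14856 contralaterally and 11910 to 17543 ipsilaterally at 6 h. Choroid plexus markers ranged from 288 to 37334 in sum over the 24 libraries, and 0 of 8 were called at 3 h and 1 at 6 h. Of 8 endothelial markers, 5 were called higher and 0 lower at 3 h and 6 higher and 0 lower at 6 h (medians 0.51 and 0.57). Their sum was 6002 to 7244 contralaterally and 8789 to 11036 ipsilaterally at 3 h, and 6040.5 to 6989 and 7138 to 18359 at 6 h. Other lists were mixed in direction. At 6 h, 3 of 8 astrocyte markers were higher and 2 lower, 3 of 8 microglia markers higher and 2 lower, 1 of 8 oligodendrocyte lineage markers higher and 1 lower, and of 9 striatum markers tested 4 were higher and 2 lower. At 3 h these counts were 1 and 1, 1 and 2, 0 and 3, and 2 and 2. The part of the dissection or of these cell types in the subunit genes was not tested.

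On the injured side, 6 h was compared with 3 h over the genotypes. Gabrb1 (-0.78 ± 0.09, limma adjusted p = 0.000178), Gabra5 (-0.57 ± 0.12, 0.0065), Gabra2 (-0.56 ± 0.13, 0.00974), Gabrb2 (-0.51 ± 0.15, 0.0376) and Gabra4 (-0.40 ± 0.07, 0.00166) were lower at 6 h. These were 5 of the 7, where 12.7% of all genes were called. Gabrb2 lost its call when any of 9 of the 12 ipsilateral libraries was taken out, all but WT 6 h replicate 2, labelled Neil1-KO 6 h replicate 1 and Neil2-KO 3 h replicate 2. Gabra3 (-0.20 ± 0.08, limma adjusted p = 0.123) was called lower, at -0.28, without WT 6 h replicate 2 (limma adjusted p = 0.0327) or labelled Neil1-KO 6 h replicate 1 (limma adjusted p = 0.0182). Only 2 were called with the ipsilateral groups alone in the fit, 3 without the pairs with high Xist, 1 with the neuron marker term and 0 with the thalamus marker term. Over all genes the counts were 701 (ipsilateral groups alone), 901 (neuron marker term) and 0 (thalamus marker term), in place of 2325. On the contralateral side 0 of 7 were called by limma, edgeR or DESeq2, where limma called 0.332% of all genes and 2318 genes had an unadjusted p under 0.05. Gabrd had the largest contralateral difference (-0.41 ± 0.14, limma adjusted p = 0.243), and the other 6 lay between -0.14 and 0.06.

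The side difference itself was then compared between the times. It was deeper at 6 h for Gabrb1 by -0.78 ± 0.12 (limma adjusted p = 0.00657), 1 of 7 genes called, where 1.9% of all genes were called. Gabra2 (-0.62 ± 0.18, limma adjusted p = 0.087), Gabra4 (-0.35 ± 0.09, 0.0632) and Gabra5 (-0.55 ± 0.17, 0.106) were not called. Gabrb2 was at -0.36 ± 0.22 (95% interval -0.82 to 0.09), Gabra3 at -0.10 ± 0.12 (-0.35 to 0.16) and Gabrd at 0.29 ± 0.20 (-0.14 to 0.71). The count was 3 with DESeq2. It was 5 without labelled Neil1-KO ipsilateral 6 h replicate 1, 4 without WT ipsilateral 6 h replicate 1, and 2 without WT ipsilateral 6 h replicate 2 or Neil2-KO ipsilateral 3 h replicate 2. It was 0 without the pairs with high Xist and with the thalamus marker term. The comparison of the times on the injured side uses the same ipsilateral libraries as this one.

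Genotype was compared on each side over both times. On the contralateral side 0 of 7 differed from WT in labelled Neil1-KO (0.103% of all genes called, 1241 genes with an unadjusted p under 0.05 in limma) and 0 of 7 in Neil2-KO (0.0817% called, 1582 genes). EdgeR and DESeq2 also called 0 of 7 in both. The 95% intervals of the contralateral differences from WT lay within -0.57 to 0.45 for labelled Neil1-KO and within -0.55 to 0.31 for Neil2-KO. Gabra4 in labelled Neil1-KO was at -0.23 ± 0.08 (limma adjusted p = 0.549), with values of 1387, 1289, 1375 and 1162 against 1543, 1587, 1518 and 1435 in WT, so the 4 libraries of each did not overlap.

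On the injured side, 4 of the 7 genes were lower in labelled Neil1-KO than in WT, where 9.31% of all genes were called. Xist was high in replicate 2 of labelled Neil1-KO at both times and in no WT library, so it was not balanced between these genotypes. Its part was not tested beyond leaving those pairs out. Ipsilateral Gabrb2 was 402 to 994 (median 942, n = 4 libraries) in labelled Neil1-KO and 945 to 1372 (median 1308) in WT, with a difference of -0.66 ± 0.19 (limma adjusted p = 0.036). The ranges overlapped, since WT 6 h replicate 1 (945) lay under both 3 h values of labelled Neil1-KO (968 and 994). Gabra3 was 1093 to 1635 against 1636 to 2226, which did not overlap but nearly met (-0.42 ± 0.10, limma adjusted p = 0.0217). The nearest values were 1635.04 in labelled Neil1-KO 3 h replicate 2 and 1635.97 in WT 6 h replicate 1. Gabrb1 (-0.39 ± 0.10, limma adjusted p = 0.0306) and Gabra4 (-0.31 ± 0.08, limma adjusted p = 0.0285) were lower with overlapping ranges. Gabra5 (-0.32 ± 0.15, 0.161), Gabrd (-0.39 ± 0.17, 0.148) and Gabra2 (-0.09 ± 0.16, 0.754) were not called. The count of 4 rested on single libraries. It was 0 without any one of WT ipsilateral 3 h replicate 1 or 2, labelled Neil1-KO ipsilateral 3 h replicate 1 and labelled Neil1-KO ipsilateral 6 h replicate 2, and 1 without WT ipsilateral 6 h replicate 2. Without WT ipsilateral 6 h replicate 1 the genes called were Gabra3, Gabrb2 and Gabrd, and without labelled Neil1-KO ipsilateral 6 h replicate 1 Gabra5 was called as well. It was also 0 in a fit of the ipsilateral libraries of both genotypes alone, where the folds are the same by construction (limma adjusted p = 0.26 to 0.272 for the 4 genes). With a choroid plexus marker term it was 0 at folds of -0.41 (Gabra3), -0.30 (Gabra4), -0.32 (Gabrb1) and -0.61 (Gabrb2). Without the pairs with high Xist it was 0 at -0.33, -0.32, -0.38 and -0.37 in the same order. With the neuron marker term it was 0 at -0.09, -0.19, -0.21 and -0.02. With the thalamus marker term it was 5, Gabra5 being called as well (-0.44, limma adjusted p = 0.0194). Leaving out single libraries also moved the count over all genes, from 1710 to between 95 (without WT ipsilateral 3 h replicate 1) and 5246 (without labelled Neil1-KO ipsilateral 6 h replicate 1). Neuron markers moved with it, 8 of 12 being lower in labelled Neil1-KO than in WT on that side with a median of -0.42. Their summed level was 78932 to 137325 in labelled Neil1-KO and 133106 to 153867 in WT. The part of the neuron markers in this difference was not tested beyond the fit with their term, in which the 4 folds were smaller.

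In Neil2-KO 0 of 7 genes differed from WT on the injured side by limma, edgeR or DESeq2 (0.109% of all genes called, 1065 genes with an unadjusted p under 0.05 in limma). Gabra2 was at 0.19 ± 0.16 and was called higher (0.47, limma adjusted p = 0.0165) without WT ipsilateral 6 h replicate 1, which left the low replicate 2 alone for WT at 6 h. The largest other differences were Gabrb2 at -0.28 ± 0.19 (95% interval -0.68 to 0.11) and Gabra3 at -0.23 ± 0.10 (-0.45 to -0.02, limma adjusted p = 0.831).

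**Figure D4:**
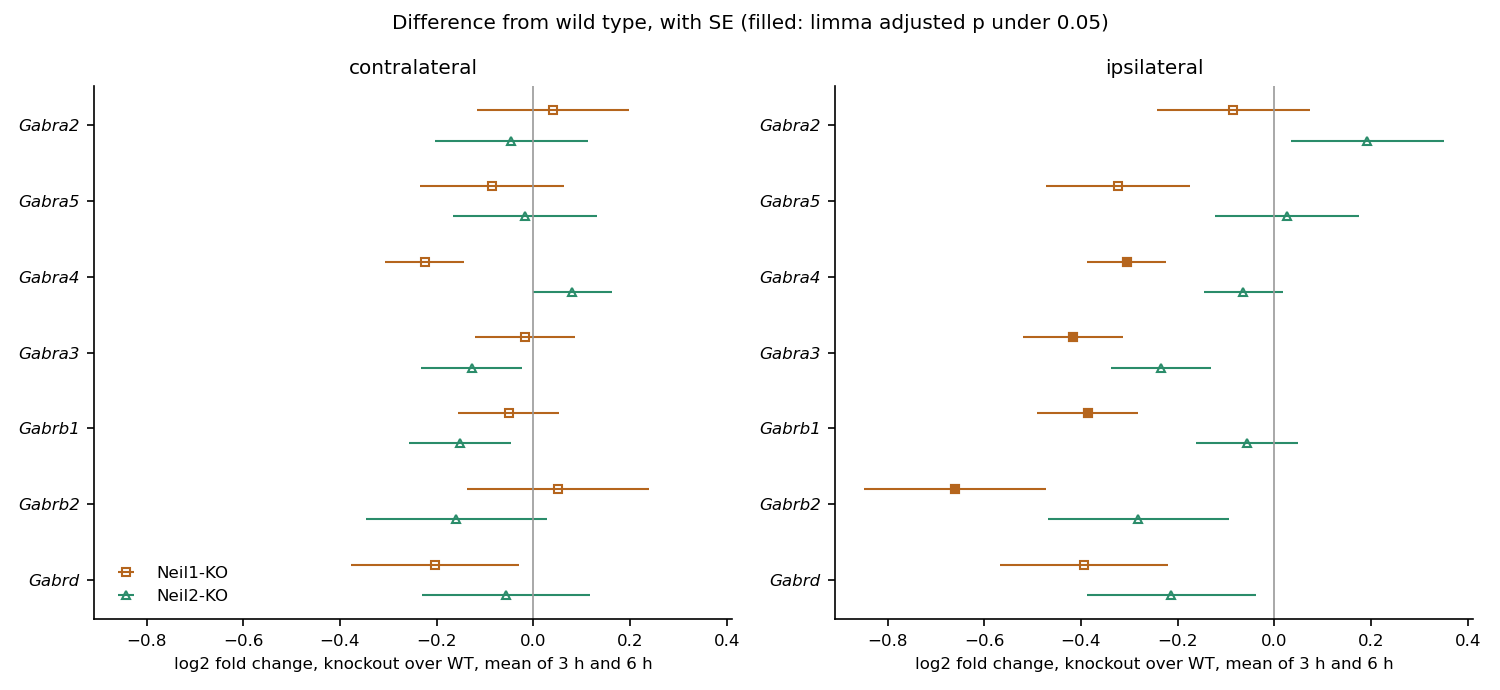
Log2 fold change of each knockout over WT, as the mean of 3 h and 6 h (x axis), for each subunit gene on the contralateral and the ipsilateral side, with bars of 1 SE from limma. Filled symbols have an adjusted p under 0.05. Only 4 ipsilateral values of labelled Neil1-KO are filled, those of Gabra4, Gabra3, Gabrb1 and Gabrb2.

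Whether the injury lowered these genes by a different amount in the knockouts was tested as the difference of side differences. In labelled Neil1-KO 0 of 7 were called (0% of all genes, with 2652 genes at an unadjusted p under 0.05 in limma), and edgeR and DESeq2 called 0 of 7 as well. Gabrb2 was at -0.71 ± 0.27 (95% interval -1.27 to -0.15, limma adjusted p = 0.303), Gabra3 at -0.40 ± 0.15 (-0.71 to -0.09, limma adjusted p = 0.303) and Gabrb1 at -0.33 ± 0.15 (-0.65 to -0.02, limma adjusted p = 0.325). Gabra4, also called lower than WT on the injured side, was at -0.08 ± 0.12 (-0.32 to 0.16, limma adjusted p = 0.754). Without labelled Neil1-KO ipsilateral 6 h replicate 1, Gabrb2 (-1.01, limma adjusted p = 0.00339) and Gabra3 (-0.51, limma adjusted p = 0.0209) were called. The count over all genes was then 2101. It was 174 without WT ipsilateral 6 h replicate 1 and 0 without any of the other 14 libraries. In Neil2-KO 0 of 7 were called (0% of all genes, 976 genes at an unadjusted p under 0.05 in limma, and 0 of 7 by edgeR and DESeq2). The values there ran from -0.16 (Gabrd) to 0.24 (Gabra2), and their 95% intervals lay within -0.68 to 0.71. The comparisons with both knockouts share the WT libraries.

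The rest of the GABA system, by lists, went with the subunit genes in part. Of 12 other GABA-A receptor subunit genes, 8 were tested, and 4 were called lower and 1 higher at both times (medians -0.30 and -0.76 over genotypes). Of 18 genes for receptor scaffold and trafficking, 13 were called lower and 0 higher at 3 h and 14 lower and 1 higher at 6 h (medians -0.36 and -0.37). Among these, Gphn, which encodes gephyrin, the scaffold of inhibitory synapses, was at -0.63 ± 0.07 at 6 h (limma adjusted p = 6.58e-07). Iqsec3, which binds gephyrin, was at -0.84 ± 0.13 and -1.24 ± 0.13.

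GABA synthesis and transport gave a smaller count. Of its 7 genes 0 were called at 3 h and 1 at 6 h, Gad2, an enzyme that makes GABA (-0.57 ± 0.10, limma adjusted p = 0.000136). Gad1, the other such enzyme, was at -0.19 ± 0.08 (limma adjusted p = 0.051) at 6 h. Of 5 genes of the GABA-B receptor, the slower metabotropic receptor, 4 were called lower at both times, among them the receptor subunit gene Gabbr2 (-0.70 ± 0.10 and -0.88 ± 0.10) and its auxiliary subunit gene Kctd16 (-1.39 ± 0.20 and -1.65 ± 0.20). Of 6 genes for chloride transport and its kinases, 1 was higher and 2 lower at 3 h and 3 higher and 3 lower at 6 h. Slc12a5, which encodes KCC2, the transporter that keeps chloride low in neurons, was at -0.58 ± 0.13 at 3 h (limma adjusted p = 0.00188) and -0.73 ± 0.13 at 6 h (0.000123). Clcn2, a chloride channel, was higher by 0.52 ± 0.07 and 0.64 ± 0.07.

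The 5 genes that fell varied together over the 24 libraries. Pearson's r between them on the log2 scale was 0.75 to 0.96 as a description, since the libraries share the split into sides and depth. Gabrd had r of -0.20 to 0.34 with them, and Gabra3 0.31 to 0.73. Among 12588 other genes, those most like Gabra5 were Ppp3ca, a catalytic subunit of calcineurin (r = 0.98), Nckap1 (0.98) and Nell1 (0.98). Those most like Gabrb1 were the cell adhesion gene Lsamp (0.98), Nlgn1, a postsynaptic adhesion gene (0.98), and Fam171b (0.98). Gabrb2 was nearest to Atp8a2, a phospholipid flippase (0.98), Agtpbp1 (0.98) and Camk4, a calcium-dependent kinase (0.98). Gabra2 was nearest to Il16 (0.97), Nr3c2, the mineralocorticoid receptor (0.97), and Nebl (0.96). Gabra4 was nearest to Dnal1, Gng7, a G protein gamma subunit, and Fam171b (each 0.97 or 0.96). Gabra3 was nearest to Bend6 (0.91), Dync1i1, a dynein subunit (0.90), and Smyd3 (0.89). Gabrd was least tightly matched, with Syt2, a synaptotagmin (0.82), Camk2g, a calcium-dependent kinase (0.81), and Sirt3, a mitochondrial deacetylase (0.80).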

How the data were processed

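The authors deposited 1 table for the series, in which each signal value is a gene's read count in a library divided by a size factor. The submitters' processing notes name Trim Galore, HISAT2, SAMtools, featureCounts, DESeq2 and the genome GRCm39 (mm39). Versions and settings are not given in the sources used here. In every library, 100% of the deposited values were whole multiples of the value of 1 read (tolerance 1e-06), so reads were recovered for the tests on counts. Of 33084 lines, 10770 (32.55%) carried no gene name. They held 8.41% to 12.5% of the reads of a library and were left out.

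Genes with a value of at least 10 in at least 2 libraries were put through limma-trend on the scale log2(value + 1), using limma 3.58.1 under R 4.3.3. The model had 12 group means and 1 shared spread. There were 17 comparisons, tested two-sided with Benjamini-Hochberg adjustment over all genes tested. Fold changes are on the log2(value + 1) scale, ± is the standard error (SE), and intervals are at 95%. Alternatives were a pseudocount of 5, no filter, edgeR 4.0.16 with TMM, DESeq2 1.42.0, only the compared groups, a replicate block, each library left out in turn, the pairs with high Xist left out, and a thalamus or choroid plexus marker term. The neuron marker term was added after seeing the data. The main limma fit was first tested on simulated counts, for the side comparison of WT at 6 h only. The alternatives and the other comparisons were not simulated.

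All 7 subunit genes are reported in every library or by range. The 3 genes most like each were taken by Pearson's r over the 24 libraries among genes with a mean value of at least 50, leaving out predicted genes, pseudogenes and other GABA-A subunits. Of other lists at most 3 genes with the smallest adjusted p were named. Gad1, Slc12a5 and Gphn fall under this rule at 6 h. The members and lists were chosen with earlier results of these data known. Exon lengths come from GENCODE M21 and promoters from RefSeq (GRCm38.p6).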

Additional observations from a re-analysis of the deposited data

Results flagged for a closer look

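The side difference of Gabrb1 differed between the times by a test of the difference itself. It was -0.88 at 3 h and -1.66 at 6 h over genotypes, a difference of -0.78 (limma, Benjamini-Hochberg adjusted p = 0.00657), and Gabrb1 was deeper at 6 h than at 3 h in each of the 3 genotypes. It was not called without the pairs with high Xist, at a difference nearly as large (-0.68, limma adjusted p = 0.0922), nor with the thalamus marker term, at a smaller one (-0.46, limma adjusted p = 0.693).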

How the results depend on the processing

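Groups of 2 limit all of these counts, and single libraries or a marker term change several. All counts are of the 7 subunit genes called. The replicate block changed no count of calls (5 stayed 5 over genotypes at both times). For the comparisons of genotypes and of times on a given side, it was a term for replicate 2 shared by all groups. For the comparisons of sides and of side differences, the sides of a number were taken as 1 pup. The correlation of their deviations was -0.006 to 0.271, so the numbers alone do not show the pairing. With only the compared groups, the counts were 5 in WT at 3 h (2 reported), 4 in Neil2-KO at 3 h (2), 0 for labelled Neil1-KO against WT on the injured side (4) and 2 for 6 h against 3 h on that side (5). Without the pairs with high Xist they were 0, 0 and 3 for labelled Neil1-KO against WT on the injured side, for the side difference between times (1) and for 6 h against 3 h on the injured side. DESeq2 gave 3 for the side difference between times. The thalamus marker term gave 1 in WT at 6 h (4), 3 and 1 in labelled Neil1-KO at 3 h and 6 h (5 and 5), 2 in Neil2-KO at 6 h (5), 2 over genotypes at 6 h (5), and 0 for both comparisons of the times named above. The choroid plexus marker term gave 0 for labelled Neil1-KO against WT on the injured side. The neuron marker term gave 1 in WT at 3 h, 2 and 1 in labelled Neil1-KO, 2 in Neil2-KO at 6 h, 2 and 3 over genotypes at 3 h and 6 h, 0 for labelled Neil1-KO against WT and 1 for 6 h against 3 h on the injured side. With single libraries left out, the counts ran over 0 to 2 (WT), 2 to 5 (labelled Neil1-KO) and 1 to 2 (Neil2-KO) at 3 h, over 4 to 5, 5 to 6 and 4 to 5 at 6 h in that order, and over 5 to 5 and 5 to 6 over genotypes. They ran over 0 to 5 and 0 to 1 for labelled Neil1-KO and Neil2-KO against WT on the injured side, 0 to 2 for the side difference of labelled Neil1-KO against WT, 1 to 5 for the side difference between times and 4 to 6 for 6 h against 3 h on the injured side. Of 2303 values of single subunit genes under an alternative, 2154 stayed on the same side of the threshold, 34 gained a call and 115 lost one, and no called value changed sign, while 88 of 1512 uncalled ones did.

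Counts over all genes moved by more than 1.5 times in several places. With only the compared groups in place of all 12, they were 1946 in WT at 3 h (787 reported), 2509 in WT at 6 h (3785), 2790 in Neil2-KO at 3 h (1696), 1852 and 2685 at 3 h and 6 h in labelled Neil1-KO (3130 and 7156), 117 and 4 for labelled Neil1-KO against WT contralaterally and ipsilaterally (19 and 1710), 9 for Neil2-KO against WT ipsilaterally (20), 228 and 701 for the times on those sides (61 and 2325), and 1 for the side difference of Neil2-KO against WT (0). DESeq2 gave 1304 in WT at 3 h, 84 and 37 for labelled Neil1-KO and Neil2-KO against WT contralaterally (19 and 15), 38 for Neil2-KO ipsilaterally (20), 268 and 798 for the times contralaterally and for the side difference between times (61 and 348), and 5 and 1 for the side differences of the knockouts (0 and 0). The thalamus and neuron marker terms gave 3127 and 1756 over genotypes at 3 h (5800) and 561 and 2441 at 6 h (8945), and 2868 and 10 for labelled Neil1-KO against WT ipsilaterally, where the choroid plexus term gave 192 and leaving out the pairs with high Xist 710. For the side difference between times those 4 gave 0 (thalamus), 406 (neuron), 561 (choroid plexus) and 24 (Xist), with 348 reported. Within genotypes the thalamus marker term gave 79 in WT at 6 h (3785). In labelled Neil1-KO it gave 1602 and 176 at 3 h and 6 h (3130 and 7156), and in Neil2-KO 548 and 1581 (1696 and 4552). The neuron marker term gave 411 in WT at 3 h (787), 802 and 216 in labelled Neil1-KO, and 802 and 1479 in Neil2-KO. For 6 h against 3 h on the injured side, the thalamus and neuron marker terms gave 0 and 901 (2325). The cause of these changes was not tested.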
